A study of Mus musculus with 2 samples.

Results

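The genes described here are 8 of the 30905 listed in both count tables: the MHC class I genes B2m, H2-K1 and H2-D1, the peptide transporter genes Tap1 and Tap2, and the interferon response genes Irf1, Ifih1 and Isg15. They were taken by symbol, and all 8 had UMIs (unique molecular identifiers, each standing for 1 captured transcript) in the cells analysed. They had been picked with their levels in these libraries already known, so the values below are a description and no test was made. The question behind them is whether loss of N6-methyladenosine (m6A), a mark on mRNA, came with an innate immune response in the retina.

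The data were single-cell RNA-seq counts from mouse retinas at postnatal day 7, read at the 3′ end of transcripts. The control library pooled 2 retinas, from 2 pups whose alleles the labels do not spell out. The Mettl3-CKO library pooled 2 retinas of littermates in which both copies of floxed Mettl3, the gene for the catalytic subunit of the m6A writer complex, were to be deleted by Six3-Cre. Six3-Cre acts in retinal progenitor cells (RPCs), so their descendants (neurons and Müller glia) should carry the deletion. Microglia, blood vessel cells and progenitors that Cre missed should not. Each group was 1 library, so genotype cannot be told apart from differences between pups, captures or libraries in any value below. The 95% intervals given in parentheses cover counting error only.

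The cells analysed held 20955138 UMIs in 3994 control cells and 19957693 UMIs in 3109 Mettl3-CKO cells, with medians of 4520.5 and 5207 UMIs per cell. Marker genes named 7 neural classes (2447 control and 1890 Mettl3-CKO cells) and 1 class of microglia-like cells (34 and 30 cells), and 1513 and 1189 cells stayed unnamed. All 15 microglial markers were detected in microglia-like cells, where they summed to 49853 and 48054 CPM (counts per 1000000 UMIs), against 28.2 and 31.0 CPM in neural cells. Mettl3, as a check of the labels, was at 38.7 CPM in control and 33.1 CPM in Mettl3-CKO neural cells, a log2 ratio of −0.22 (−0.41 to −0.04). This check is weak, since 3′ reads may lie outside the deleted exons. The libraries also differed in Xist, the noncoding RNA of X inactivation, at 1.53 CPM (control) and 1544 CPM (Mettl3-CKO). Erythroid markers summed to 811 CPM in control and 1.31 CPM in Mettl3-CKO neural cells.

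MHC class I molecules show peptides from inside a cell to T cells and natural killer cells. H2-K1 and H2-D1 encode the classical heavy chains, B2m the light chain that every heavy chain needs, and Tap1 and Tap2 the subunits of the transporter that carries peptides into the endoplasmic reticulum. Neurons are known for low class I levels, which interferons can raise through STAT and IRF transcription factors. IRF1 is one of these factors, IFIH1 (MDA5) senses double-stranded RNA, and ISG15 is a ubiquitin-like protein made in large amounts after type I interferon.

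The promoters show which control elements the members carry, and are printed for that reason. RefSeq sequence of 250 bases before to 50 bases after the start site (build GRCm38.p6) was given for 7 members, not for Tap2. Both strands were searched for 4 motifs. AANNGAAA is the core bound by IRF factors. The interferon-stimulated response element (ISRE) was searched as GAAA, any 2 bases and GAAA again, so each of its matches holds an AANNGAAA. TTCNNNGAA is the STAT site, and the NF-kB site was the last. AANNGAAA was in the promoters of B2m, H2-K1, H2-D1, Ifih1 and Isg15 and in 23.9% of 32851 promoters of the same length. The ISRE was in those of B2m, Ifih1 and Isg15 and in 3.44% of all. TTCNNNGAA was in that of Irf1 and in 8.30% of all, and the NF-kB site was in those of B2m, H2-K1, H2-D1 and Irf1 and in 8.46% of all. For Irf1 this holds for 1 promoter entry, and a second one (chr11:53770223-53770522) held none of the 4 motifs. In the 30-base windows below, written 5′ to 3′ on the strand of the gene, capitals mark the letters that match IRF motifs (for Irf1 the STAT motif).
B2m, chr2:122147538-122147567, plus strand: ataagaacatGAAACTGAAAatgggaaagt
H2-K1, chr17:34000419-34000448, minus strand: catctccacagTTTCACTTctgcacctaac
H2-D1, chr17:35262933-35262962, plus strand: catctcctcagTTTCACTTctgcacctaac
Irf1, chr11:53769913-53769942, plus strand: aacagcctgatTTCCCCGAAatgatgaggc
Isg15, chr4:156200870-156200899, minus strand: tagGAAAAGGAAACCGAAACAGAAAatagc
The H2-K1 and H2-D1 windows carry the same capitals. Ifih1 had 2 overlapping AANNGAAA matches, 28 to 41 bases after the start site, the second within its ISRE match at 32 to 41, and is not printed, and the Tap1 promoter held none of the 4 motifs. A match is a run of letters and does not show that a factor binds there.

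Microglia-like cells carried the class I transcripts at levels that no neural class came near. B2m was at 1727 CPM (368 UMIs) in control and 2021 CPM (503 UMIs) in Mettl3-CKO microglia-like cells, 123-fold (103 to 147) and 175-fold (146 to 210) above all neural cells. H2-K1 was at 432 and 370 CPM, 114-fold and 124-fold above neural cells. H2-D1 was at 817 and 779 CPM, and its margin was the smallest of the class I genes, 29.7-fold and 29.3-fold. With 0.851% of control and 0.965% of Mettl3-CKO cells, microglia-like cells held 53.1% and 64.5% of all B2m UMIs, 47.7% and 56.4% of H2-K1 UMIs, and 22.1% and 26.0% of H2-D1 UMIs.

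**Figure D1:**
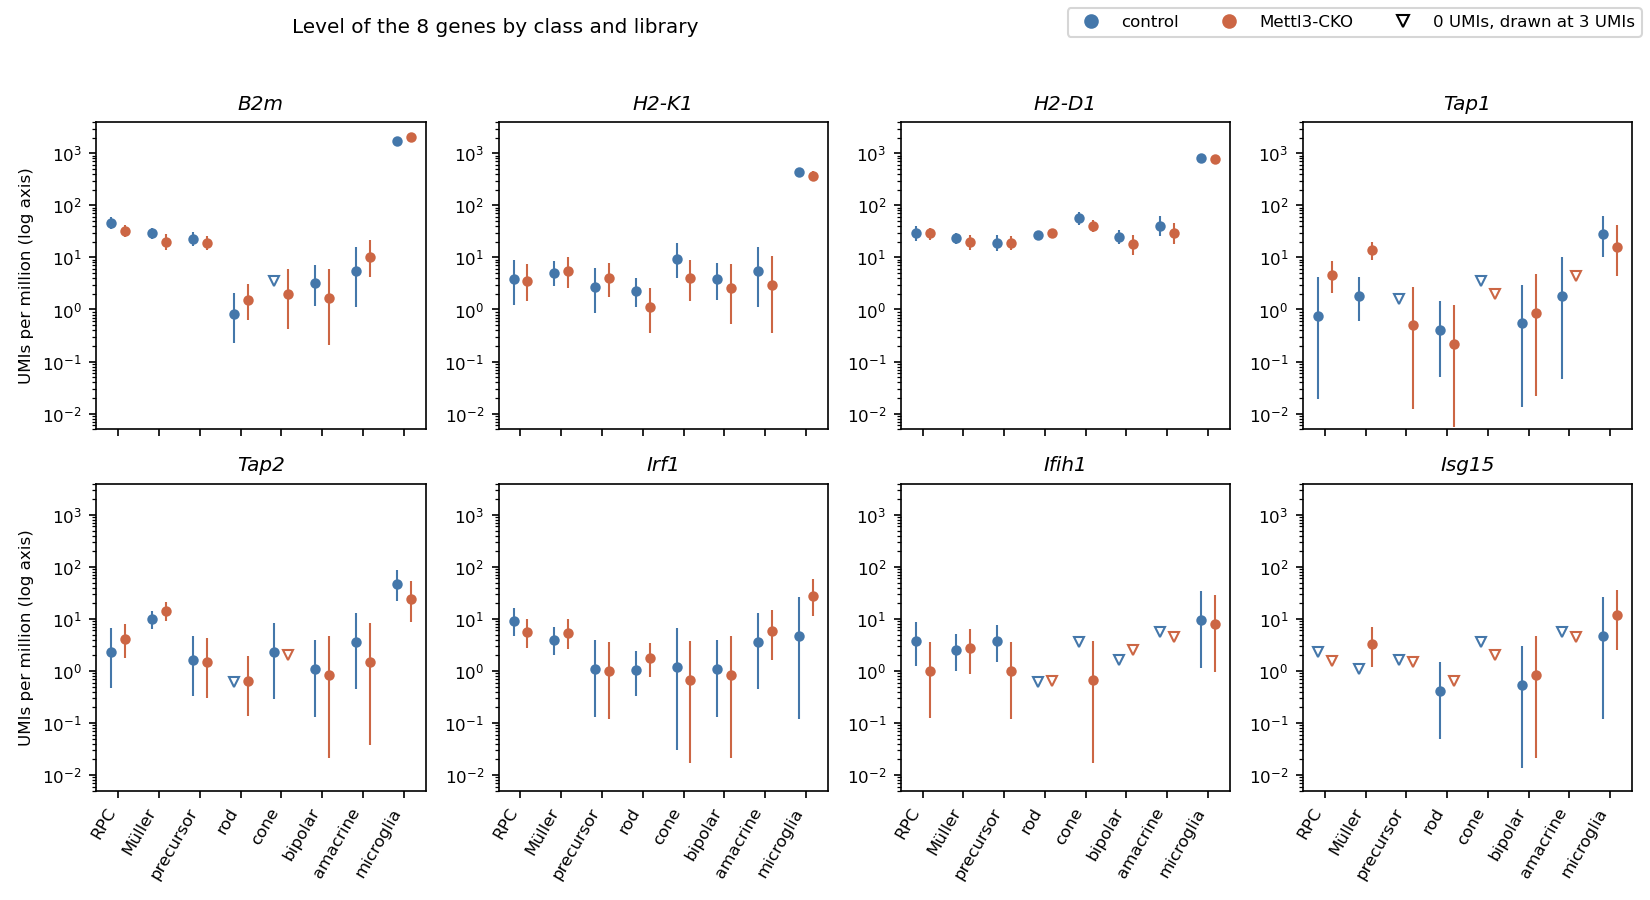
Level of each of the 8 members in each class, in CPM on a log axis, for the control (blue) and the Mettl3-CKO library (orange). Points are summed levels with exact 95% Poisson intervals and open triangles mark 0 UMIs, drawn at the level of 3 UMIs. B2m, H2-K1 and H2-D1 stand highest in microglia-like cells, and B2m drops from RPC-like to rod-like cells where H2-D1 does not.

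Among neural cells B2m had a steep order. In the control library it was at 46.6 CPM in RPC-like and 29.0 CPM in Müller-like cells (61 and 80 UMIs), with rod/bipolar precursor-like cells next (43 UMIs). It then dropped to 5.52 CPM in amacrine-like, 3.24 CPM in bipolar-like and 0.821 CPM in rod-like cells (3, 6 and 4 UMIs), with 0 UMIs in cone-like cells. Between neighbours in that order, intervals overlapped in all but 1 case, the step from precursor-like (16.7 to 31.0 CPM) to amacrine-like cells (1.14 to 16.1 CPM). The Mettl3-CKO library had the same leading classes, at 32.5 CPM in RPC-like, 20.1 CPM in Müller-like and 19.2 CPM in precursor-like cells. There amacrine-like cells were at 10.4 CPM, cone-like cells at 2.02 CPM, bipolar-like cells at 1.69 CPM and rod-like cells at 1.53 CPM, and every interval overlapped that of the next class. RPC-like cells were 56.8-fold (21.1 to 215) above rod-like cells in the control and 21.3-fold (9.77 to 55.1) in the Mettl3-CKO library.

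H2-D1 was spread across the neural classes in another way. Cone-like cells had its highest level in both libraries, at 56.6 CPM (41.7 to 75.1, 48 UMIs) in control and 39.7 CPM (30.3 to 51.3, 59 UMIs) in Mettl3-CKO cells. Amacrine-like cells followed at 40.5 and 29.6 CPM. Rod-like cells, where B2m was nearly absent, had H2-D1 at 26.9 CPM (131 UMIs) and 29.2 CPM (134 UMIs). The lowest level was 19.3 CPM in control precursor-like and 17.7 CPM in Mettl3-CKO bipolar-like cells, and intervals of all neighbours in the order overlapped. Control cone-like cells were 2.11-fold (1.48 to 2.95) above control rod-like cells, and the same ratio was 1.36 (0.983 to 1.86) in the Mettl3-CKO library. H2-K1 was low everywhere in neural cells, between 1.09 CPM (5 UMIs, Mettl3-CKO rod-like cells) and 9.44 CPM (8 UMIs, control cone-like cells).

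Droplet libraries hold free RNA, and the microglial C1q genes (C1qa, C1qb and C1qc) give a measure of its microglial part in neural cells. Were all C1q UMIs of a class free microglial RNA, the B2m to C1q ratio of microglia-like cells would give the B2m that came with it. Measured B2m was 184-fold above that level in control and 212-fold above it in Mettl3-CKO RPC-like cells, and 482-fold and 30.6-fold above it in Müller-like cells. The RPC-like folds rest on very few C1q UMIs. These were 3, 1 and 0 of C1qa, C1qb and C1qc in control cells and 1 of each in Mettl3-CKO cells. The excess was 3.21-fold and 2.78-fold for rod-like cells, and 2.98-fold for Mettl3-CKO cone-like cells, from 4, 7 and 3 UMIs. It was 14.5-fold and 2.84-fold for bipolar-like cells and 9.03-fold and 4.64-fold for amacrine-like cells. In Mettl3-CKO amacrine-like cells, the top cell for each gene held 6 of 8 C1qa, 4 of 4 C1qb and 3 of 3 C1qc UMIs. Whether these C1q UMIs were free RNA was not tested. H2-D1 was 34.4-fold to 828-fold above the level that C1q UMIs would bring in every neural class. The B2m levels of rod-like, cone-like, bipolar-like and amacrine-like cells thus rest on few UMIs. Where not 0, they lay 2.78-fold to 14.5-fold above that level, which covers microglial free RNA only.

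**Figure D2:**
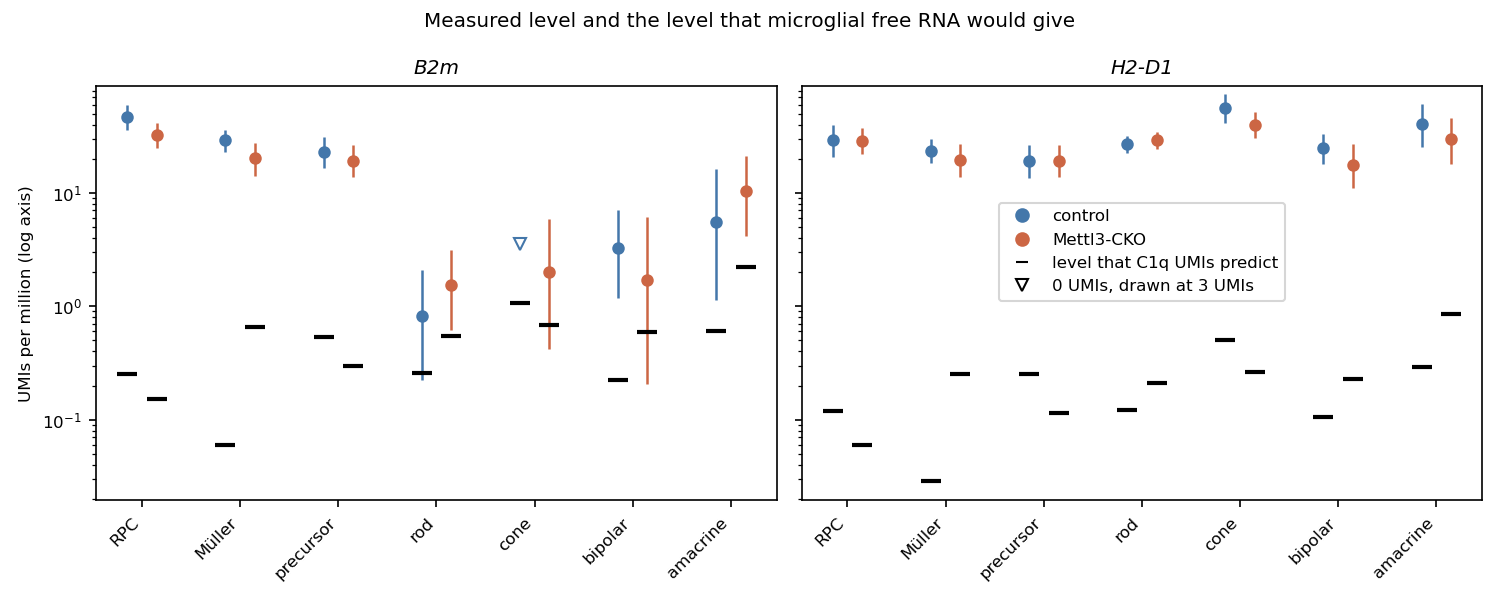
Measured levels of B2m (left) and H2-D1 (right) in neural classes, in CPM on a log axis, with exact 95% Poisson intervals, and the level that the C1q UMIs of the class would bring as free microglial RNA (black bars). The B2m points of rod-like, cone-like, bipolar-like and amacrine-like cells lie nearest to their bars, at most 14.5-fold above them, open triangles mark 0 UMIs (drawn at 3 UMIs), and every H2-D1 point lies at least 34.4-fold above its bar.

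Shares of cells with a B2m UMI were again far higher in microglia-like than in neural cells once each cell was thinned to 1000 UMIs, which left out shallower cells. B2m was seen in 14 of 22 control microglia-like cells (63.6%, 40.7 to 82.8) and in 14 of 20 Mettl3-CKO ones (70.0%, 45.7 to 88.1), with 12 and 10 cells left out. It was seen in 0.942% of 2229 control and 1.26% of 1748 Mettl3-CKO neural cells, with 218 and 142 left out. In rod-like cells, the largest class and one near the bottom of the B2m order, the share was 1 of 1134 cells in the control and 0 of 739 in the Mettl3-CKO library, where 3 counts would be 0.406% and the upper exact limit is 0.498%. Thinned cone-like, bipolar-like and amacrine-like cells had 0 in both libraries, in 60 to 222 cells each. Unthinned, B2m was seen in 6.25% of control and 6.40% of Mettl3-CKO neural cells, at median depths of 4682 and 5975 UMIs, and in 0.334% and 0.786% of rod-like cells, at 4107.5 and 4556 UMIs. H2-D1 was seen in 2.29% and 2.23% of thinned neural cells and in 13.4% and 16.0% of unthinned ones. Thinned shares did not keep every order among neural classes. B2m was seen in 3.25% of control and 6.63% of Mettl3-CKO RPC-like cells, and in 3.38% and 2.24% of Müller-like cells. Thinned to 2000 UMIs instead, the RPC-like shares were 10.8% and 5.23%. H2-D1 was seen in 2.15% and 1.90% of cone-like and 2.47% and 2.30% of rod-like cells at 1000 UMIs. At 2000 UMIs these were 7.14% and 4.90%, and 5.11% and 4.91%.

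Between the libraries, the class I genes summed over neural cells did not differ by more than the counting error. These sums also carry the mix of classes, which differed. RPC-like cells, where B2m was highest, held 1309083 of 14051294 control and 1966708 of 13757499 Mettl3-CKO neural UMIs. B2m was at 14.0 CPM (197 UMIs) in control and 11.6 CPM (159 UMIs) in Mettl3-CKO neural cells, a log2 ratio of −0.28 (−0.59 to 0.03). H2-D1 was at 27.5 CPM (386 UMIs) and 26.6 CPM (366 UMIs), a log2 ratio of −0.05 (−0.26 to 0.16). H2-K1 had 53 and 41 UMIs and a log2 ratio of −0.34 (−0.96 to 0.28). Of the 5 members with at least 50 UMIs in neural cells (B2m, H2-K1, H2-D1, Tap2 and Irf1), 0 were past 1.5-fold in either direction. Over all 12404 genes with as many UMIs, 5.04% were higher and 3.17% lower by that fold in Mettl3-CKO cells. With at least 20 UMIs required, 2 of 7 members were past 1.5-fold, Tap1 higher and Ifih1 lower, against 6.59% and 4.88% of 13697 genes.

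The level of B2m over all cells moved the other way. It was at 33.1 CPM in control and 39.1 CPM in Mettl3-CKO cells, a log2 ratio of 0.24 (0.09 to 0.39). Microglia-like cells, which held over 53% of these UMIs, had a log2 ratio of 0.23 (0.03 to 0.42), while RPC-like cells had −0.52 (−1.05 to 0.01) and Müller-like cells −0.53 (−1.13 to 0.05). The sign for neural cells was also not firm: as a mean of per-cell CPM, in which shallow cells weigh as much as deep ones, it was 0.18. With predicted doublets left out and the classes kept it was −0.35, and its interval then lay below 0. Split by Xist among cells of at least 4000 UMIs, the ratio to 1550 control cells was −0.64 (−1.03 to −0.26) for 896 Mettl3-CKO neural cells with Xist and −0.07 for 476 cells without it.

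In microglia-like cells, H2-K1 had 92 UMIs in each library and a log2 ratio of −0.22 (−0.66 to 0.21), and H2-D1 had 174 and 194 UMIs and −0.07 (−0.37 to 0.24). Of these 3 class I genes, the ones with at least 50 UMIs there, 0 were past 1.5-fold, against 8.53% higher and 10.5% lower of 1290 genes. These microglia should not carry the deletion, and their 34 and 30 cells had median depths of only 1500.5 and 1459.5 UMIs.

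**Figure D3:**
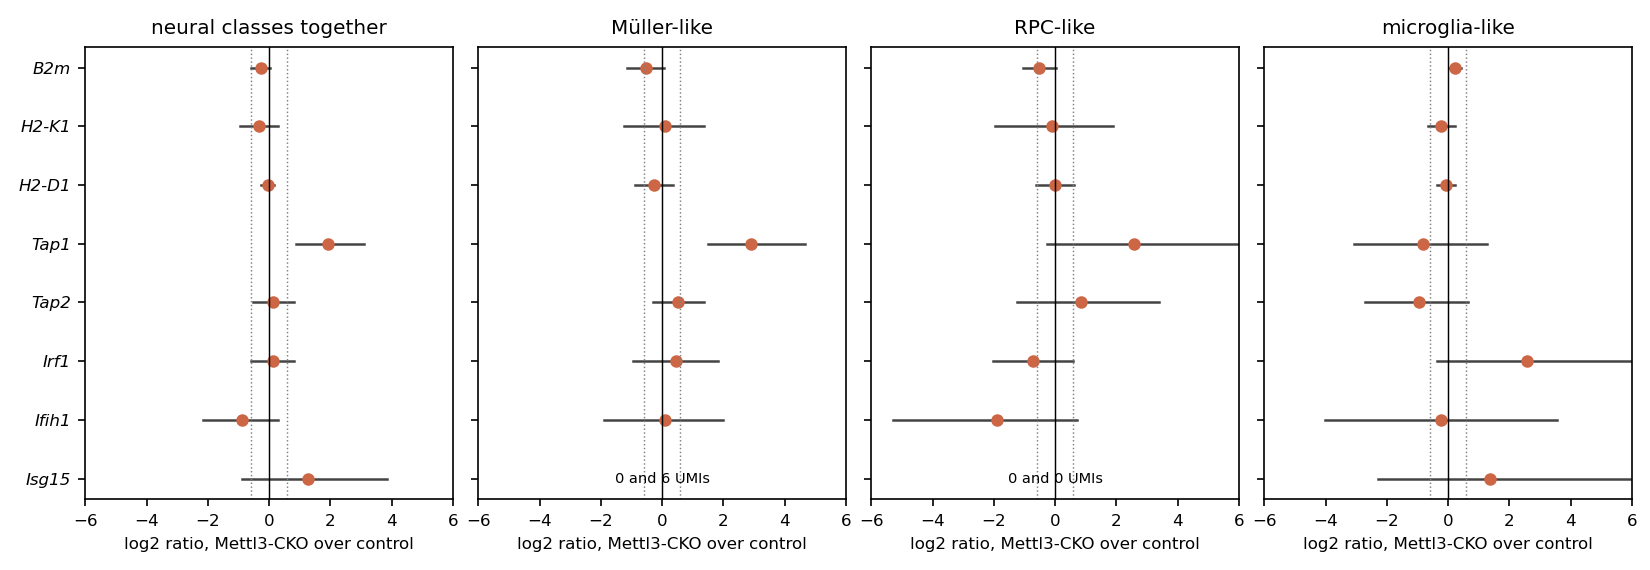
Log2 ratio of the Mettl3-CKO over the control level for each member in neural, Müller-like, RPC-like and microglia-like cells, with exact 95% intervals for counting error, cut at −6 and 6 where they run further. The Tap1 intervals in neural and Müller-like cells lie above 0, and those of H2-K1, H2-D1, Tap2, Irf1 and Ifih1 in neural cells include it.

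Tap1 was the member with the largest difference in neural cells. It had 10 UMIs in control and 37 UMIs in Mettl3-CKO neural cells, or 0.712 and 2.69 CPM, a log2 ratio of 1.92 (0.88 to 3.09). Müller-like cells held most of the difference, with 5 and 25 UMIs (1.81 and 13.6 CPM), a log2 ratio of 2.91, or 7.50-fold (2.82 to 25.1). Of the 6 members with at least 20 UMIs in Müller-like cells, 1 was past 1.5-fold, Tap1, against 14.1% of genes higher and 4.7% lower. In RPC-like cells, where 13.9% of genes with 20 UMIs were higher and 6.09% lower, 0 of 3 members were higher and 1, Irf1, was lower (9.17 and 5.59 CPM). That call rests on 1 control cell with endothelial markers, which held 3 of the 12 Irf1 UMIs. Without it, Irf1 was at 7.38 and 5.59 CPM, a log2 ratio of −0.40 (−1.81 to 1.05). Tap1 had 1 and 9 UMIs there, and each other neural class had 2 or fewer in either library. Its partner Tap2 differed less in Müller-like cells, with 27 and 26 UMIs (9.79 and 14.1 CPM). In all neural cells Tap2 had 39 and 42 UMIs, a log2 ratio of 0.14 (−0.53 to 0.80). RPC-like cells had 3 and 8 Tap2 UMIs. The neural sum leaves out an unnamed cluster led by Ung, Mcm6 and Mcm3. In that cluster both Tap1 and Tap2 had more UMIs in the Mettl3-CKO library, as given further below. The neural ratio of Tap1 stayed above 0 under every setting tried but was small in some. It was 1.27 (0.20 to 2.43) with the cell filter of the study, 1.02 as a mean of per-cell CPM, 1.33 (0.07 to 2.69) for Mettl3-CKO cells with Xist and 2.73 (1.53 to 4.05) for those without.

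Within the Müller-like class, Tap1 sat almost wholly in 1 subcluster. Reclustering, in which no member took part, gave 1 Müller-like subcluster with 78 Mettl3-CKO cells and 1 control cell, called Mettl3-CKO-only below. Its 78 cells held 24 Tap1 UMIs in 15 cells, or 34.7 CPM (22.3 to 51.7). The other 219 Mettl3-CKO Müller-like cells held 1 UMI (0.872 CPM), and the 462 control cells held 5 (1.81 CPM). The Mettl3-CKO-only level was 19.2-fold (7.16 to 64.3) above control and 39.8-fold (6.50 to 1638) above the other Mettl3-CKO cells. A subcluster of 1 library was chosen by that library, so these folds describe where the UMIs lay.

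No other member was above control in those cells beyond its counting error. Of the 4 members with at least 20 UMIs, Tap1 was higher and B2m lower by 1.5-fold, against 19.7% of 10210 genes higher and 13.2% lower. B2m was at 17.4 CPM (12 UMIs) in Mettl3-CKO-only, 21.8 CPM (25 UMIs) in other Mettl3-CKO and 29.0 CPM (80 UMIs) in control Müller-like cells, a log2 ratio of −0.74 (−1.75 to 0.14) of the first to the last. H2-D1 was at 17.4, 20.9 and 23.6 CPM and Tap2 at 13.0, 14.8 and 9.79 CPM in the same order. Mettl3 itself was at 31.8, 34.9 and 37.7 CPM, with overlapping intervals. Mettl3-CKO-only subclusters of precursor-like (68 cells) and rod-like cells (113 cells) held 0 Tap1 UMIs.

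Cdkn1a, a cell cycle inhibitor and textbook target of p53, was also highest in the Mettl3-CKO-only cells among Müller-like cells. Unlike the members, this gene was not kept out of the reclustering and could help set that subcluster. It was at 606 CPM in Mettl3-CKO-only, 50.6 CPM in other Mettl3-CKO and 11.6 CPM in control Müller-like cells. Classes with hardly any Tap1 UMIs also had more Cdkn1a in the Mettl3-CKO library. It was at 14.0 CPM in control and 44.7 CPM in Mettl3-CKO rod-like cells, and at 17.7 and 70.1 CPM in cone-like cells. Of the 16 Mettl3-CKO Müller-like cells with a Tap1 UMI, 12 had a Cdkn1a UMI (75.0%, 47.6 to 92.7). Of the 281 without, 54 had one (19.2%, 14.8 to 24.3). The first were deeper, with a median of 10909 UMIs against 5969, and 1 of the 16 was a predicted doublet. Nearly all of the 16 lay in the Mettl3-CKO-only subcluster, so these shares are not separate from that split. What part Cdkn1a, depth or the choice of subcluster has in the Tap1 difference was not tested.

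**Figure D4:**
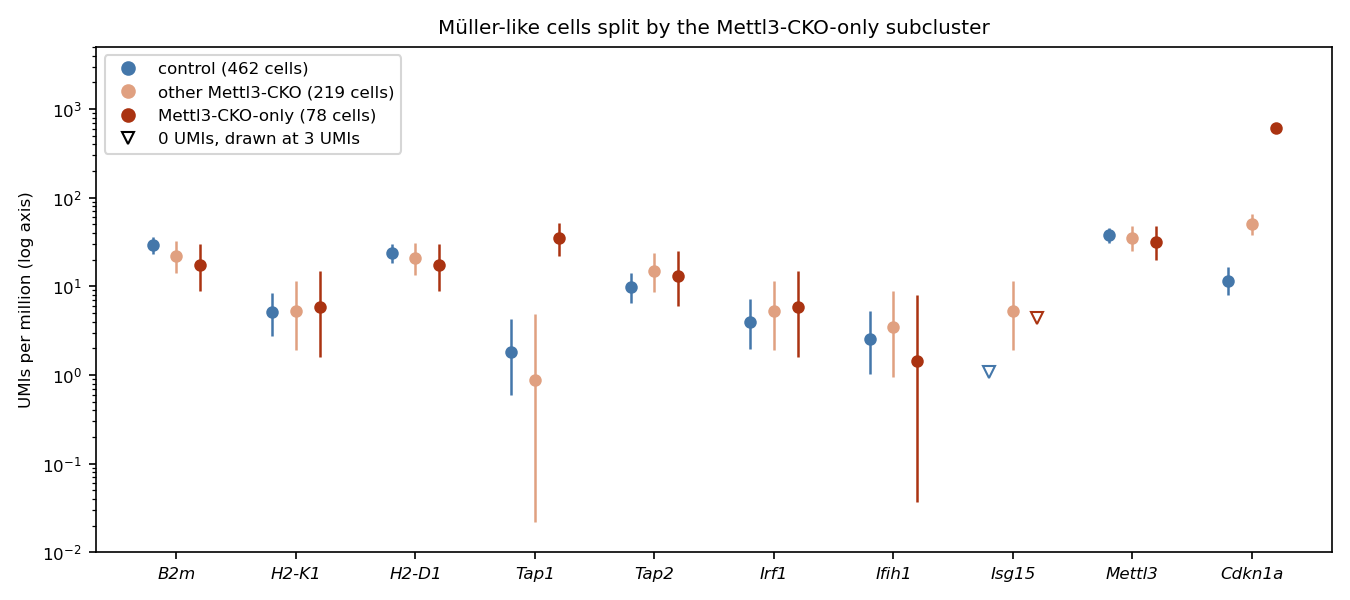
Levels of the members, Mettl3 and Cdkn1a in Müller-like cells, in CPM on a log axis with exact 95% Poisson intervals, for control cells (462), other Mettl3-CKO cells (219) and Mettl3-CKO-only cells (78). Tap1 and Cdkn1a are highest in Mettl3-CKO-only cells, at 34.7 and 606 CPM, and B2m, H2-D1 and Mettl3 are not.

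The interferon response members were rare. Irf1 had 35 and 37 UMIs in neural cells, a log2 ratio of 0.11 (−0.60 to 0.82). Its highest neural levels were 9.17 CPM in control RPC-like and 5.92 CPM in Mettl3-CKO amacrine-like cells (12 and 4 UMIs). In microglia-like cells it had 1 and 7 UMIs. Ifih1 had 19 UMIs in control and 10 UMIs in Mettl3-CKO neural cells, a log2 ratio of −0.90 (−2.16 to 0.28). All but 1 of them lay in RPC-like, Müller-like and precursor-like cells, and rod-like, bipolar-like and amacrine-like cells had 0 in both libraries.

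Isg15, the member most closely tied to type I interferon, was found in 14 cells in all (5 control and 9 Mettl3-CKO). Neural cells held 3 and 7 UMIs of it and microglia-like cells 1 and 3. Of the 7 Mettl3-CKO neural UMIs, 6 came from 1 Müller-like cell that had only 835 UMIs in total. That cell decides the sign. It was no predicted doublet, but when doublets were left out and the remaining cells clustered and named again it fell among the unnamed cells, and the neural log2 ratio was −0.87. With doublets left out and the classes kept, the ratio was 1.90. No direction can be given at this depth.

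**Figure D5:**
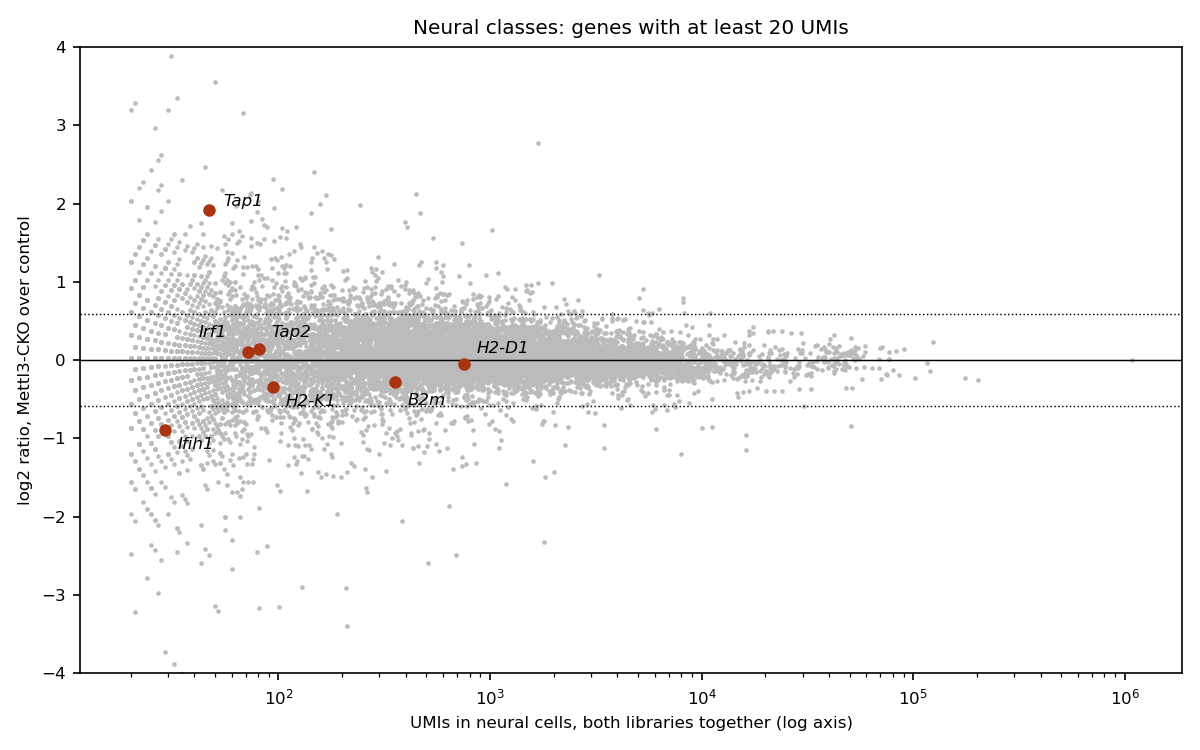
All 13691 genes with at least 20 UMIs in neural cells and a UMI in each library, by their summed UMIs (log axis) and their log2 ratio of the Mettl3-CKO over the control level, with 7 members marked. The vertical axis runs from −4 to 4 and 24 genes lie beyond it, Isg15 had under 20 UMIs, and Tap1 (1.92) and Ifih1 (−0.90) lie outside the dotted lines at 1.5-fold.

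The other genes of these pathways were taken from lists and counted with the same limits of 50 UMIs and 1.5-fold. Of the 5 interferon receptor genes tested in neural cells, 0 were past 1.5-fold, and their median log2 ratio was 0.36 against 0.03 over all genes tested. Ifngr1, a subunit of the interferon-gamma receptor, was at 32.3 and 44.5 CPM (0.46, 0.28 to 0.64). Ifnar2, a subunit of the type I receptor, was at 17.8 and 23.2 CPM (0.38, 0.14 to 0.63). The interferons themselves were nearly unseen: Ifnb1 and Ifna4 had 0 UMIs in neural cells of both libraries and Ifng had 0 and 1.

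JAK-STAT and IRF genes had 0 of 13 past 1.5-fold and a median of 0.06. Socs1, a feedback inhibitor of JAK kinases, had a log2 ratio of 0.43 (−0.36 to 1.24), and the kinase gene Jak1 −0.07 (−0.22 to 0.08). Of 7 nucleic acid sensing genes, 1 was higher, and the median was 0.29. That gene was Eif2ak2, which encodes the double-stranded RNA sensor PKR, with 65 and 96 UMIs and a log2 ratio of 0.59 (0.12 to 1.07). With median-of-ratios scaling, which shifted all genes by 0.03, it came inside the limit, and 0 of 7 were past 1.5-fold.

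Interferon-stimulated genes gave 1 higher and 3 lower of 14, with a median of −0.02, where 5.04% of all genes were higher and 3.17% lower. Herc6, a ligase that attaches ISG15 to proteins, had a log2 ratio of 0.62 (−0.11 to 1.36), and Cmpk2 one of 0.42 (−0.36 to 1.21). Bst2 (tetherin) had 45 and 21 UMIs, −1.07 (−1.89 to −0.29), and Oasl2 had 39 and 19 UMIs, −1.01 (−1.88 to −0.18). Ifitm2, an inhibitor of virus entry, had 230 and 145 UMIs, −0.64 (−0.95 to −0.33). Chosen after its values were seen, Rtp4 had 0 UMIs in control neural cells and 14 in the Mettl3-CKO library, all in 5 Müller-like cells, and Usp18, which removes ISG15 from proteins, had 1 and 11.

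A single control cell weighed on these sums. It was grouped with RPC-like cells but held 124 UMIs of Cldn5, a gene of the endothelial marker list, 31 UMIs of Ifitm3, 4 of B2m and 3 of Irf1. It also held 91 of the 247 UMIs that all 47 interferon-stimulated genes had in control RPC-like cells, and of their 1155 in control neural cells. The list counts above include this cell, and none is given here without it. With cells of at least 5 endothelial marker UMIs left out, a setting added after seeing the data, the neural log2 ratio was −0.26 for B2m, −0.29 for H2-K1, −0.03 for H2-D1 and 1.91 for Tap1. Cldn5 was not among the markers so counted. Amacrine-like cells also carried it, with up to 28 (control) and 24 (Mettl3-CKO) UMIs in 1 cell, and 0 of them were left out.

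Of the other MHC class I heavy chains, 0 of 4 were past 1.5-fold and the median was −0.23. H2-T23, a nonclassical heavy chain, had 58 and 38 UMIs, −0.58 (−1.21 to 0.04), and H2-T24 had −0.30 (−1.16 to 0.54). The peptide loading and proteasome list had 0 higher and 1 lower of 9, with a median of −0.19. Erap1, which trims peptides, had 42 and 26 UMIs, −0.66 (−1.43 to 0.08). The chaperones that help load class I were among the most abundant list genes in neural cells, with log2 ratios of 0.13 for Calr, 0.02 for Pdia3 and 0.08 for Canx. The proteasome activator genes Psme1 and Psme2 had −0.19 (−0.34 to −0.04) and −0.22 (−0.38 to −0.06). Only 1 MHC class II gene reached 50 UMIs, and 0 of 1 was past 1.5-fold.

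Lists were also counted in Mettl3-CKO-only against control Müller-like cells, with at least 20 UMIs required. There 2 of 10 interferon-stimulated genes were higher and 5 lower by 1.5-fold, with a median of −0.41 against 0.07 over all genes tested, of which 19.7% were higher and 13.2% lower. Of 7 sensing genes 2 were higher and 1 lower. Eif2ak2 was at 39.1 CPM against 6.89 CPM in control cells (2.50, 1.60 to 3.43). Adar, an RNA editing enzyme, was at 30.4 against 13.1 CPM (1.22, 0.37 to 2.03). Oasl2, of the interferon-stimulated list, was at 1.45 against 13.1 CPM (1 and 36 UMIs). Outside that subcluster, Mettl3-CKO Müller-like cells had another count: 7 of 13 interferon-stimulated genes were higher and 0 lower, with a median of 0.63 against 0.06 over all genes tested, of which 10.7% were higher and 5.85% lower. They included Herc6 (1.27), Uba7 (1.04), Xaf1 (0.94), Parp9 (0.82), Cmpk2 (0.78) and Ifi35 (0.63), named after their values were seen, and all 7 intervals included 0. Back in Mettl3-CKO-only cells, Tapbp, the tapasin gene of the loading complex, was at 21.7 against 10.5 CPM (1.05, 0.04 to 1.99). Adar and Tapbp were also named after their values were seen.

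The same lists were sparse in microglia-like cells. Of the UMIs that the 47 interferon-stimulated genes had there, 5 cells held 73.5% in control (227 of 309). In the Mettl3-CKO library 5 cells held 65.3% (175 of 268). Intervals for counting error do not cover such unevenness between cells. Of 2 interferon-stimulated genes with 50 UMIs, 0 were higher and 1 lower: Bst2 had 74 and 31 UMIs, −1.48 (−2.13 to −0.86). Ifngr1 had 116 and 56 UMIs there, −1.28 (−1.76 to −0.80), opposite in sign to neural cells, and that difference between classes was not tested. Calr had 119 and 213 UMIs, 0.62 (0.28 to 0.95), while Irf8, a factor of the microglial lineage, had 89 and 118 UMIs, 0.18 (−0.23 to 0.60). Pdia3 had a log2 ratio of 0.10 (−0.33 to 0.53) and Psme1 one of −0.22 (−0.73 to 0.28).

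As a description of likeness, the log2(CPM + 1) levels of each gene with at least 100 UMIs were correlated with those of B2m. Over 16 points (8 named classes in 2 libraries), the highest Pearson r were those of Elovl1 (0.974), Tnfrsf1a (0.974), Efhd2 (0.967), Golm1 (0.965) and Arhgdia (0.965). The microglia-like points, far above the rest, shape this order. Over the 14 neural points, the leaders included Erp44 (0.972), Tfdp2 (0.968), Hkdc1 (0.959) and E130114P18Rik (0.959), and H2-D1 had −0.463. The points of 1 library share its depth and free RNA, and no p-value was computed.

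The members lie on 4 chromosomes of GRCm38. B2m spans chr2:122147686-122153083 and Ifih1 chr2:62595798-62646255. Isg15 spans chr4:156199424-156200818 and Irf1 chr11:53770014-53778374. On chromosome 17, H2-K1 spans chr17:33996017-34000347, Tap1 chr17:34187553-34197225, Tap2 chr17:34203527-34216321 and H2-D1 chr17:35262730-35267499. All are annotated as protein-coding. Tap1 shares exonic bases with Psmb9, Tap2 with Gm15821 and Gm20496, and Irf1 with Gm17334, each on the opposite strand, and whether counting used the strand was not given in the sources used here. Psmb9 had 6 and 4 UMIs in neural cells. Of the 50-base stretches in the last 500 bases of their transcripts, 9.60% for H2-K1, 8.92% for H2-D1 and 2.75% for Tap1 (all in Tap2) also occur in other genes. The split of UMIs between H2-K1, H2-D1 and their relatives is therefore less certain than the B2m values, which had 0 such stretches.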

How the data were processed

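The authors aligned 10x Genomics reads to mm10 (GRCm38) and counted them with Cell Ranger 3.1.0, per the labels and the study's methods. The deposited values are raw UMI counts per gene and cell, with 1 library per group. The tables as read held 3994 complete control cells of 5995 barcodes and 3109 complete Mettl3-CKO cells of 6992, and the rest were not analysed here. The 2 libraries shared 5 barcodes. UMIs of 13 mitochondrial genes (5.53% and 4.19%) were left out of totals.

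From the counts, cells were scaled to 10000 UMIs, and 2000 variable genes (without the listed genes, Mettl3 and sex-linked genes), 10 principal components and 20 neighbours were clustered with Leiden at resolution 1 (leidenalg 0.10.2, scikit-learn 1.9.0, Python 3.11.15). Clusters were named from 15 marker lists. These rebuilt names can differ from those of the study. Scrublet (scanpy 1.11.5) marked 0.0751% and 0.225% of cells at its own threshold, so the 233 and 187 highest-scoring cells were taken as predicted doublets, kept in the main values and left out as an alternative. No cell was filtered; 237 and 86 cells were outside the filter of the study (over 200 genes, under 20% mitochondrial UMIs).

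UMIs were summed per class and library and given as counts per 1000000 UMIs (CPM) with exact Poisson intervals. Ratios carry exact conditional binomial and shares exact Clopper-Pearson intervals, at 95% (scipy 1.17.1). A count of 0 was set to 3 UMIs where a limit was needed. With no replicates, no p-value was computed. The ratio script was tested on simulated counts.

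The members, lists and alternatives were chosen with earlier results of these data known. Beside the members, the text names 6 list genes from each end of the neural ratios (at least 50 UMIs), the 6 most abundant in control neural and in control microglia-like cells, and the 5 genes most like B2m, save any that is not reported here. Other settings tried were the study's cell filter, depth, scaling, cell weighting, clustering, doublets, Xist, microglial marker UMIs, the fold and the UMI minimum.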

Additional observations from a re-analysis of the deposited data

Results flagged for a closer look

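The unnamed clusters entered the values over all cells above but no comparison of a class. There Tap2 had a log2 ratio of 1.22 (0.22 to 2.30), from 13 UMIs in 1513 control and 27 UMIs in 1189 Mettl3-CKO cells, which is above the control level by more than the counting error. Most of these UMIs, 7 and 23, lay in 1 unnamed cluster led by Ung, Mcm6 and Mcm3, genes of DNA replication and repair, in which Tap1 had 1 and 9 UMIs. That cluster held 154 control and 227 Mettl3-CKO cells. At Leiden resolution 2, a cluster led by Ung, Mcm3 and Mcm6 (69 control and 123 Mettl3-CKO cells) was named RPC. The RPC-like values above were taken at resolution 1 and leave the unnamed cluster out.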

How the results depend on the processing

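For neural ratios, 1 library a group sets the limit: no alternative measures the spread between pups or captures, and members under 20 UMIs carry no direction. Of the values for the main comparisons under other settings, 104 stayed within their counting interval, 5 moved beyond it and 3, all of Isg15, turned in sign from a ratio past 1.5-fold. The B2m log2 ratio was −0.64 with Mettl3-CKO cells that hold Xist and 0.18 as a mean of per-cell CPM, and that of H2-D1 was −0.31 with Mettl3-CKO cells without Xist. The sign of Isg15 turned, to −0.87 when doublets were left out and cells named again, −1.02 in cells of at least 4000 UMIs and −1.53 at Leiden resolution 2, since 1 Müller-like cell with 6 UMIs was then unnamed or left out. Without doublets but with the classes kept, it was 1.90. Ratios near 0 crossed it within their intervals: H2-K1 ran from −0.50 to 0.03, H2-D1 from −0.31 to 0.14, Tap2 from −0.28 to 0.64 and Irf1 from −0.06 to 0.78. Members past the fold numbered 1 of 5 (H2-K1) at the smaller fold tried and 2 of 7 at 20 UMIs. Other causes were not tested. Leaving out cells with endothelial UMIs and keeping the classes without doublets were alternatives added after seeing the data. They changed no direction in neural cells together, and the first ended the Irf1 call in RPC-like cells. No paired analysis was possible because each group has 1 library and no test was made.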

Other observations

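Among unnamed clusters, 1 cluster of 42 control and 18 Mettl3-CKO cells, led by Ttr, Rgs5 and H19, had the class I level nearest to that of microglia-like cells. B2m was at 139 CPM (57 UMIs) in its control and 133 CPM (28 UMIs) in its Mettl3-CKO cells, and H2-K1 at 43.9 and 38.0 CPM (18 and 8 UMIs). Its leading genes belong to several cell types of the eye, and it was given no name. In the unnamed cluster led by Ung, Mcm6 and Mcm3, B2m was at 44.7 and 41.7 CPM (57 and 82 UMIs), close to its level in RPC-like cells of the control library.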
